A study of Homo sapiens with 6 samples.

Results

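The baseline transcriptome of TPC-1 cells that had received a control siRNA was measured on 3 of the study's 6 arrays, those whose sample titles carry the group name si-Control. TPC-1 is an established human cell line that was derived from a papillary carcinoma of the thyroid. Cells of this group were transfected at about 85% confluence with 25 pmol of si-Control and 4.5 ul of a lipid transfection reagent, and RNA was harvested 24 h later. The 3 replicates came from experiments done at separate times. Every cell measured had therefore been exposed to siRNA and lipid, untransfected cells were not analysed here, and a single line stands for the tumour type. The other 3 arrays, from cells given an siRNA against SMAD3, were not used.

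Thyroid follicular cells are polarised epithelial cells that take up iodide, build thyroglobulin and make thyroid hormone under control of the TSH receptor and of transcription factors such as PAX8, NKX2-1 and FOXE1. Papillary carcinomas commonly carry a lesion that switches on the MAPK pathway, and TPC-1 cells are known for a fusion of CCDC6 to the kinase gene RET. The fusion joins the kinase portion of RET to the promoter and first part of CCDC6.

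The arrays gave 1 log2 value for each probe set, normalized by the authors. Each of 33458 genes was represented by its brightest singly named probe set and ranked by the mean of the 3 arrays. Genes of the olfactory receptor family, which are silent in most tissues outside the nose, set the background: the 400 members lay between 2.80 and 6.12 with a median of 3.49, and a gene was called above background when its mean exceeded their 95th percentile of 4.59. By that limit 16154 genes were above background (48.3%) and the 3346 genes of the top 10% had means of at least 10.98. Of the 17618 protein-coding genes, 10596 were above background (60.1%) and 2794 were in the top 10% (15.9%). Probe sets differ in brightness for equal amounts of RNA, so a class or rank places a value among the values of these arrays and does not compare transcript amounts between genes.

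**Figure D1:**
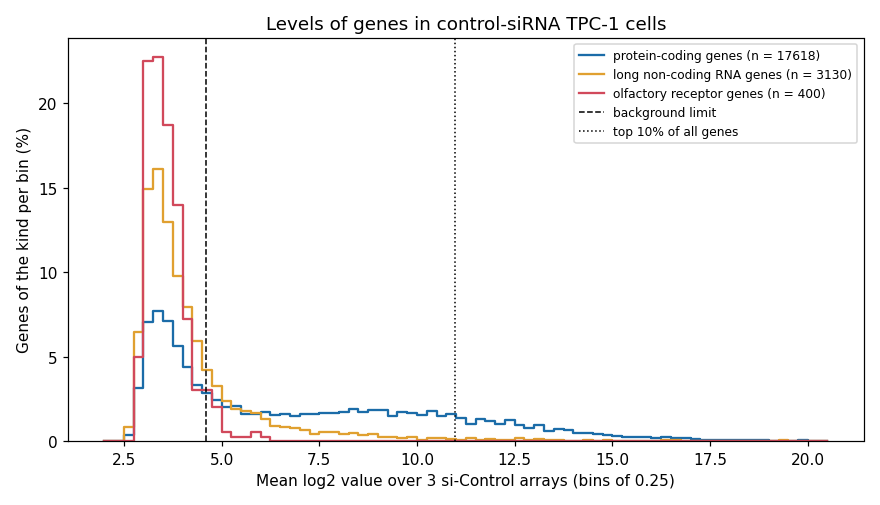
Share of genes (%) in bins of 0.25 against the mean log2 value over the 3 si-Control arrays, for protein-coding genes, long non-coding RNA genes and olfactory receptor genes. The olfactory receptors, whose median was 3.49, form 1 peak left of the dashed limit at 4.59, while the protein-coding genes also spread to the right up to the ceiling of 19.93; the dotted line at 10.98 marks the start of the top 10%.

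Families whose activity is known from textbooks were set against the limit; they were chosen after the levels had been seen. All 72 mitochondrial ribosomal protein genes and all 32 complex I subunit genes were above background, as were 34 of 36 proteasome subunit genes and 53 of 57 cytoplasmic ribosomal protein genes. Of 31 beta-defensin genes 3 were above background, of 89 keratin-associated protein genes 24, of 42 cancer-testis genes 11 and of 18 late cornified envelope genes 5. Of 22 bitter taste receptor genes 11 were above background, with means up to 9.58. Families known as silent in most tissues thus also had members above the limit, and the reverse occurred too. IRF3 and LMNB2, which most cells express, were at 3.17 and 3.03, so a value at background says only that the probe set gave no more signal than silent genes. Of 612 control probe sets whose names mark them as negative, 39.1% lay above the limit, and the sources used here do not give their targets. Of 23 control probe sets named by GC content, 5 also lay above it, those with 3 to 7 GC bases, with means of 4.86 to 7.38. The base content of the genes' own probes was not examined. Among other classes, 730 of 3130 long non-coding RNA genes, 454 of 1470 miRNA genes and 127 of 227 small nucleolar RNA genes were above background.

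The upper end of the ranking held genes of several kinds. The highest value, 19.93 on all 3 arrays, was shared by 14 genes. Of these 14, 8 were protein-coding: the mitochondrially encoded respiratory chain genes CYTB, COX1, ND1 and ND5, the glycolytic genes GAPDH and LDHA, the membrane-binding protein gene ANXA2 and the endoplasmic reticulum hydroxylase gene ASPH. At that ceiling the true order and the spread between arrays cannot be seen. Below it came DCBLD2, a transmembrane protein (19.87, 19.93 and 19.93 in replicates 1, 2 and 3), EEF1A1, the translation elongation factor that brings tRNA to the ribosome (19.73, 19.80 and 19.80), and TUBA1B, an alpha-tubulin (19.78, 19.45 and 19.80). NT5E, the cell surface enzyme that makes adenosine from AMP, stood at 19.06 ± 0.15 (SD, n = 3, as in all values with ± that follow), and CALR, a chaperone of the endoplasmic reticulum, at 18.81 ± 0.07. The zinc-binding metallothionein gene MT2A had the widest spread of the 25 highest protein-coding genes, with 19.18, 18.20 and 19.26, and replicate 2 was the low array.

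The promoters of the genes differed in composition between the classes, and sequence had played no part in the ranking. In the 250 bases before the annotated gene start (RefSeq, GRCh38.p14), the median ratio of observed to expected CpG was 0.413 for 5392 protein-coding genes at background, 0.814 for 6555 between background and the top 10%, and 0.855 for 2339 in the top 10%. The GC box GGGCGG, the letters read by SP1-family factors, was found on either strand in 41.4%, 65.4% and 69.6% of these promoters. The share was 57.0% over the 14286 ranked protein-coding genes with a promoter, all classes together. It was 42.3% over all 27305 promoters in the RefSeq table, which also holds genes of other kinds. The ETS-type letters CCGGAAG stood in 4.41%, 15.9% and 17.7%. TATAAA ran the other way, with 14.6%, 5.86% and 5.64%, and so did CAGGTG, the E-box read by ZEB and SNAI factors, with 20.5%, 15.9% and 12.1%. The median GC content also differed, at 57.6%, 64.4% and 65.2%, and the part of base composition in the motif shares was not tested. A match is a run of letters and not a bound site, and an annotated gene start need not be the start used in these cells.

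The contrast is visible in 4 promoters, shown because their genes carry the description of the line that follows: FN1 and MET in the top 10%, and the thyroid genes TSHR and SLC5A5 at background. They are written 5' to 3' on the gene's strand with GGGCGG, or its reverse complement CCGCCC, in capitals.
FN1, chr2:215436069-215436318, minus strand: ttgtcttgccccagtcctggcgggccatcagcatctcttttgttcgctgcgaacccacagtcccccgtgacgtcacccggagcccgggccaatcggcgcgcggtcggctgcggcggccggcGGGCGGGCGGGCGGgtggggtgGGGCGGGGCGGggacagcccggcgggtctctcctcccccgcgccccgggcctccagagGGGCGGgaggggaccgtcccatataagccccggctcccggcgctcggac
MET, chr7:116671946-116672195, plus strand: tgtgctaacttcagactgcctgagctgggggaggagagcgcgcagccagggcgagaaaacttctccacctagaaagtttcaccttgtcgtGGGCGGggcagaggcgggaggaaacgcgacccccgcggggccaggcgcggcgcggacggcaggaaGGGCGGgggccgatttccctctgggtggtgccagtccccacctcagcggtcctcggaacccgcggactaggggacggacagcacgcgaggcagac
TSHR, chr14:80955371-80955620, plus strand: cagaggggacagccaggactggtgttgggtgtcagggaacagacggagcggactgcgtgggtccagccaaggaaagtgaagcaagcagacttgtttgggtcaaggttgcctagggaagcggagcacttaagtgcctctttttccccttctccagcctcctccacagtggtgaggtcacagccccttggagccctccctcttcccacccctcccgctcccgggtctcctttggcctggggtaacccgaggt
SLC5A5, chr19:17871695-17871944, plus strand: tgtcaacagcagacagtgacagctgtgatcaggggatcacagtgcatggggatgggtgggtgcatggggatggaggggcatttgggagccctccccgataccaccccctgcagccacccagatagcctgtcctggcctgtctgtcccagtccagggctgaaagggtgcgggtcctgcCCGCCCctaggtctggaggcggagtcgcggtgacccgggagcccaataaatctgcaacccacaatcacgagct
The FN1 promoter holds 6 matches, counting those that overlap, at 129, 125, 121, 107, 102 and 49 bases before the start, and 32 CpG dinucleotides. MET holds 2 matches and 24 CpG. TSHR holds 0 matches and 7 CpG, and SLC5A5 holds 1 match on the opposite strand and 8 CpG.

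Checked against thyroid markers, the cells had some of the tissue's transcription factors above background and few of its functional genes. PAX8, the paired-box factor that activates thyroglobulin and the iodide transporter, was in the top 10% with 13.43, 13.99 and 13.60. FOXE1, a forkhead factor of thyroid development, was above background at 6.67, 6.80 and 7.11, and GLIS3, a zinc-finger factor needed for hormone synthesis, at 9.69, 9.96 and 9.75. The remaining members of the list of 6 were at background: NKX2-1 had 3.55, 4.16 and 3.89, and HHEX had 4.63, 3.88 and 4.33, with only replicate 1 over the limit. The listed genes thus split evenly, 3 above and 3 at background.

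The genes that define a working follicular cell were at background on all 3 arrays. TG, which encodes thyroglobulin, gave 3.12, 3.88 and 3.01. TSHR, the TSH receptor, gave 3.41, 3.31 and 3.33, and SLC5A5, the sodium-iodide symporter, 2.95, 2.83 and 3.23. None of these values exceeds what silent genes gave. DUOX2, the oxidase that supplies hydrogen peroxide, was at 2.97, 2.98 and 3.05, and IYD, the iodotyrosine deiodinase, at 2.95 ± 0.22. SLC26A4, an anion exchanger of the apical membrane (named outside the rule), was at 3.38 ± 0.55. Of 16 genes for hormone synthesis and handling, 2 were above background, the metallothionein MT1G (13.55 ± 0.57) and the amino acid and thyroid hormone transporter SLC16A10 (6.99 ± 0.27). The receptors for thyroid hormone were between background and the top 10%, THRA with 6.80, 7.41 and 7.82 and THRB with 6.38, 6.50 and 6.52.

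Of 28 genes known to be raised in papillary carcinoma, 21 were above background (75%, beside 60.1% of protein-coding genes) and 9 in the top 10% (32.1%, beside 15.9%), among them FN1, MET, TIMP1, CLDN1, PLAU and the annexin partner S100A10. Also in the top 10%, and named outside the rule, were the hyaluronan receptor gene CD44 (15.64 ± 0.12) and the dipeptidase gene DPP4 (14.01 ± 0.24), each with a second probe set far lower, at 6.02 and 5.05. Not every marker was high: LGALS3, encoding galectin-3 (outside the rule), was at 6.71 ± 0.27, KRT19 at 4.72, 5.30 and 4.99, and CITED1, a transcriptional coactivator, at background with 3.21 ± 0.11. The members of this list were chosen for tumours, and the classes here are relative to silent genes and not to normal thyroid.

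Kinase and cell-cycle genes around RET gave a mixed picture. RET read 3.62, 3.73 and 3.55, all at background; the sources used here do not give the part of the gene that its probe set covers, and CCDC6, the fusion partner, was not analysed here. NCOA4, the partner of another RET fusion and the receptor that delivers ferritin for breakdown, was at 13.96, 13.51 and 14.01. Of 29 genes of RET fusions, MAPK signalling and cell-cycle control, 23 were above background (79.3%, beside 60.1% of protein-coding genes). In the top 10% were 12 (41.4%, beside 15.9%). They included the exchange factor SOS1 (12.76 ± 0.05), the adaptor GRB2 (12.57 ± 0.24), the kinase MAPK3 (12.74 ± 0.38) and cyclin D1, CCND1 (14.99 ± 0.37). CDKN2A, a locus for cell-cycle inhibitors that many cancer lines have lost, was in the top 10% with 14.42, 14.93 and 14.69. Its neighbour CDKN2B was at background at 4.44 ± 0.09, as was TERT, the telomerase subunit, at 3.78 ± 0.10.

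Markers of other cell types were mostly at background. Of the C cell and neuroendocrine markers 0 of 9 were above it, CALCA, which encodes calcitonin, being at 4.25 ± 0.27. Of the immune cell markers 2 of 17 were above background, the lysosomal gene CD68 (8.79 ± 0.26) and, just over the limit, TYROBP (4.93 ± 0.07). Of the endothelial markers 2 of 12 were above, the ETS factor ERG (7.50 ± 0.11) and EMCN (5.16 ± 0.74), while PECAM1 was at 3.31 and CDH5 at 3.59. Fibroblast and muscle markers had the largest share of these lists, with 6 of 13 above background and 0 in the top 10%. That share, 46.2%, lay below the 60.1% of protein-coding genes. The list was led by the proteoglycan gene LUM (8.85 ± 0.62) and the collagen gene COL1A1 (8.40 ± 0.25, second probe set at 4.89). The fibroblast receptors PDGFRA and PDGFRB were at background, at 3.66 and 3.75. The culture is 1 line, and whether these transcripts came from the TPC-1 cells themselves was not tested.

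Receptors for growth and attachment signals held some of the highest values of the lists, and they were concentrated in few members of each family. Receptor tyrosine kinases pass growth factor signals to the MAPK and PI3K pathways. Of 55 ranked, 20 were above background (36.4%), below the share of protein-coding genes, and 4 were in the top 10%. MET, the receptor for hepatocyte growth factor, gave 16.64, 16.85 and 16.75. ROR1, a Wnt-binding receptor mostly found in embryos and tumours, gave 14.38, 14.65 and 14.40, and these values differed little between arrays. AXL, the receptor for GAS6, gave 13.96, 12.67 and 14.02, and replicate 2 was the low array. RYK, another Wnt-binding member, was at 12.51 ± 0.15.

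EGFR, the receptor for EGF, TGF-alpha and epiregulin, was above background on every array with 9.87, 8.26 and 9.89, and again replicate 2 was low. For MERTK, a relative of AXL, with 9.16, 10.21 and 9.94, replicate 1 was the low array. At background were KIT (2.89 ± 0.09), the VEGF receptor KDR (2.99 ± 0.08) and the FGF receptor FGFR3 (3.08 ± 0.17). The ligands of MET and AXL, both outside the rule, were at background by mean. HGF had 3.33, 4.86 and 3.35, over the limit in replicate 2 alone, and GAS6 had 4.04, 4.04 and 4.57.

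**Figure D2:**
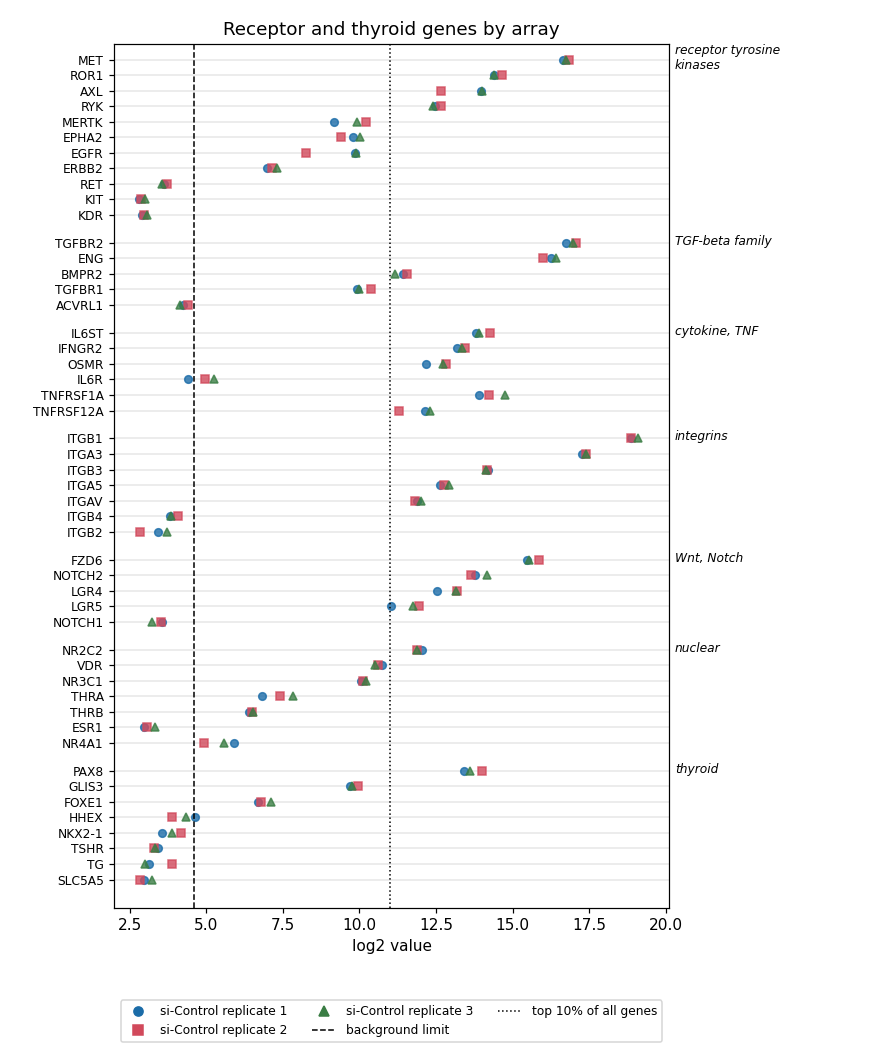
Log2 values of receptor genes and thyroid genes on each of the 3 si-Control arrays, grouped by family, with circles, squares and triangles for replicates 1, 2 and 3. Points left of the dashed line at 4.59 are at background (RET, KIT, KDR, TSHR, TG and SLC5A5 among them) and points right of the dotted line at 10.98 are in the top 10% (MET, TGFBR2, ITGB1 and PAX8 among them); for AXL and EGFR the replicate 2 square lies left of the other points.

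The TGF-beta pathway was represented from receptor to transcription factor. TGF-beta binds a type II receptor that activates a type I receptor, which phosphorylates SMAD2 and SMAD3 to join SMAD4 in the nucleus. TGFBR2, the type II receptor, was at 16.75, 17.07 and 16.96, and the co-receptor ENG at 16.25, 15.98 and 16.41. TGFBR1, the type I receptor, was at 9.91, 10.39 and 9.97, between background and the top 10%. Of 13 receptors of the family 10 were above background (76.9%, beside 60.1% of protein-coding genes). Those at background included ACVRL1 (4.26 ± 0.13) and the AMH receptor AMHR2 (3.16 ± 0.24).

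Among the SMAD, YAP and TEAD factors, all 14 were above background and 7 in the top 10%, though SMAD6 had a mean of 4.59 at the limit itself. SMAD3 gave 14.20, 14.21 and 14.67, SMAD2 gave 12.29, 12.25 and 12.23, and SMAD4 gave 12.99, 12.79 and 12.99. The BMP-regulated SMAD5 was at 15.18 ± 0.28, and SMAD7, the feedback inhibitor, at 7.13 ± 0.14. YAP1 and WWTR1, the co-activators of the Hippo pathway, were at 12.50 ± 0.25 and 12.59 ± 0.19, and their DNA-binding partner TEAD1 at 12.54 ± 0.18. The ligands contrasted with this: of 35 members and inhibitors of the TGF-beta family, 6 were above background and 0 in the top 10%. TGFB1 led them with 10.12, 10.47 and 10.66, followed by BMP4 with 9.74, 9.46 and 10.20.

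Integrins, which tie cells to matrix, were divided sharply. Of 25 subunits 10 were above background (40%, below the 60.1% of protein-coding genes), and 8 of these 10 were in the top 10%. ITGB1, the beta subunit shared by most matrix-binding integrins, gave 18.86, 18.87 and 19.10. Its laminin-binding partner ITGA3 gave 17.25, 17.39 and 17.40, and the fibronectin-binding partner ITGA5 was at 12.77 ± 0.14. ITGB3, a vitronectin receptor subunit that pairs with ITGAV, was at 14.17 ± 0.04, the narrow spread showing that the arrays nearly coincided. ITGB2, the leukocyte subunit, was at background at 3.33 ± 0.44, and so, outside the rule, was ITGB4, the hemidesmosome subunit, at 3.92 ± 0.13.

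Wnt and Notch receptors were more evenly spread, with 12 of 18 above background (66.7%, beside 60.1% of protein-coding genes) and 6 in the top 10%. FZD6, a frizzled receptor, was at 15.62 ± 0.21, LGR4, a receptor for R-spondins, at 12.96 ± 0.37, and its stem cell relative LGR5 at 11.01, 11.95 and 11.74. NOTCH2 gave 13.78, 13.65 and 14.17, whereas NOTCH1 gave 3.55, 3.53 and 3.24 and NOTCH3 was at 3.19 ± 0.11. NOTCH4, at 3.80 ± 0.39, was at background as well, so NOTCH2 alone of the 4 was above it.

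Cytokine receptors numbered 27 of 47 above background (57.4%) and those of the TNF family 18 of 26 (69.2%), beside 60.1% of protein-coding genes. IL6ST, the signalling chain shared by interleukin-6 type cytokines, was at 13.79, 14.27 and 13.89, and OSMR, its partner for oncostatin M, at 12.57 ± 0.35. The interleukin-6 receptor chain IL6R (outside the rule) was close to the limit, with 4.40, 4.95 and 5.26. Interferon receptor chains IFNGR2 (13.32 ± 0.12, second probe set at 6.62) and IFNAR2 (11.73 ± 0.20) were in the top 10%. So were the TNF receptor TNFRSF1A (14.30 ± 0.42), the TWEAK receptor TNFRSF12A, with 12.14, 11.30 and 12.32, and the TRAIL receptor TNFRSF10B (11.74 ± 0.29). At background were IL2RA (3.34 ± 0.23), a chain of the interleukin-2 receptor, and TNFRSF17 (3.07 ± 0.15), a receptor of plasma cells. Other receptors known from lymphocytes were above background, such as CD40 (10.81 ± 0.24) and, outside the rule, TNFRSF9 (9.98 ± 0.39).

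Nuclear receptors, which bind hormones and lipids, had 24 of 40 members above background and 3 in the top 10%, near the 60.1% and below the 15.9% of protein-coding genes. The orphan receptors NR2C2 (11.93 ± 0.09, second probe set at 5.30) and NR2C1 (11.05 ± 0.07) and the clock component NR1D2 (11.38 ± 0.22) were the 3. The vitamin D receptor VDR was at 10.62 ± 0.11 and the glucocorticoid receptor NR3C1 at 10.12 ± 0.08. Both estrogen receptors were at background, ESR1 at 3.12 ± 0.19 and ESR2 at 3.06 ± 0.05. Among G protein-coupled receptors for lipids, proteases and adenosine, 12 of 23 were above background (52.2%). They were led by F2RL2, a protease-activated receptor (12.62 ± 0.25), and ADORA1, an adenosine receptor (11.75 ± 0.23).

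Transcription factor families outside the thyroid list differed in their shares above background, several lying near the 60.1% of protein-coding genes. AP-1 factors act downstream of MAPK signalling. FOSL1, the AP-1 member also called FRA-1, gave 15.30, 14.54 and 15.49, while FOS was at background at 3.72 ± 0.31 and JUNB at 3.49 ± 0.23. In all, 14 of 23 AP-1 and CREB/ATF factors (60.9%) were above background and 7 in the top 10%. ETS factors had 19 of 27 above background (70.4%) and 7 in the top 10%. Of these, ELK4, a partner of serum response factor, was at 15.35 ± 0.04 and ETV1, a MAPK-responsive member, at 12.78 ± 0.26. The epithelial ETS factors EHF (3.19 ± 0.29), ELF3 (3.54 ± 0.08) and SPDEF (3.46 ± 0.28) were at background, while ELF5, another (outside the rule), was just over the limit by mean with 4.47, 5.31 and 4.48.

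The KLF and SP family, which reads GC boxes of the kind shown in the FN1 and MET promoters, had 14 of 26 members above background (53.8%) and 6 in the top 10%. SP3 was at 14.98 ± 0.15 and SP1 at 13.78 ± 0.12. KLF6, an immediate-early gene, gave 12.68, 11.85 and 13.13, with replicate 2 lowest. SOX factors were mostly at background, 13 of 18, and the 5 above it included SOX4 (10.41 ± 0.47) and SOX9 (9.39 ± 0.30). Of factors that specify other tissues, 10 of 26 were above background and 1 was in the top 10%. That 1 was RUNX2, the bone regulator, with 16.21, 16.24 and 16.09, and its locus overlaps SUPT3H in the RefSeq gene table. STAT, IRF and NF-kB factors had 13 of 18 above background (72.2%, beside 60.1% of protein-coding genes) and 0 in the top 10%. RELA was at 10.72 ± 0.26 and STAT3 at 8.77, 9.60 and 9.89.

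Factors of the epithelial-mesenchymal transition, in which epithelial cells lose their junctions and gain motility, were listed together with factors of epithelial cells. Of the 14 ranked from this mixed list, 4 were above background (28.6%). ZEB1, a repressor of E-cadherin, gave 15.23, 15.58 and 15.19, and SNAI2, another such repressor, gave 10.45, 10.08 and 10.76. ZEB2 was just over the limit at 5.12 ± 0.27. The remaining one, GRHL1, is a grainyhead factor of epithelia and gave 5.13, 5.47 and 5.72. TWIST1 was just under the limit with 4.27, 4.62 and 4.48. ESRP1, a splicing regulator of epithelial cells, was at background with 3.61, 2.96 and 3.36, and so were OVOL1 (3.06 ± 0.11) and OVOL2 (3.17 ± 0.07), which oppose the transition. Outside the rule, SNAI1 was at 3.87 ± 0.52 and GRHL2 at 3.89 ± 0.12.

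Junction and epithelial genes were found in all classes, and 6 of the 15 epithelial markers were above background (40%, below the 60.1% of protein-coding genes). CDH1, encoding E-cadherin, gave 2.92, 3.36 and 3.13, and EPCAM, an epithelial adhesion molecule, gave 3.17, 3.20 and 3.03. All these values lay within the range of silent genes. CDH2, encoding N-cadherin, was above background with 8.33, 8.03 and 9.12. Outside the rule, the cadherins CDH6 (11.08 ± 0.28), known from kidney, and CDH3 (9.23 ± 0.14, second probe set at 3.73), encoding P-cadherin, were above background too. Of the cytoplasmic partners of cadherins, 3 catenins were in the top 10%, CTNNB1 with 14.76, 15.26 and 15.16, CTNNA1 with 14.95, 15.04 and 15.10, and CTNND1 with 14.89, 15.06 and 14.88. CTNNA3, an alpha-catenin of heart, was at background at 2.91 ± 0.08, as were the neural CTNNA2 (3.90 ± 0.20) and CTNND2 (3.71 ± 0.17), and JUP, encoding plakoglobin, was between at 8.28 ± 0.51; the last 3 are outside the rule. In all, 16 of 33 cadherins, catenins and nectins were above background (48.5%) and 8 in the top 10%.

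Tight junctions seal epithelial sheets, and 12 of 31 of their genes were above background (38.7%, below the 60.1% of protein-coding genes). CLDN1, encoding claudin-1, gave 16.73, 15.89 and 16.88, with replicate 2 lowest. The scaffold gene TJP1 was at 14.58 ± 0.12, with a second probe set at 5.57, and OCLN, encoding occludin, was at 10.17 ± 0.25. CLDN16, a claudin of the kidney, read 14.14 ± 0.20, but it overlaps CLDN1 in the gene table, and the signal of one may not be separable from that of the other. CLDN7 was above background at 6.00 ± 0.13, while CLDN3 (3.55 ± 0.27) and CLDN4 (3.99 ± 0.74), both outside the rule, were at background.

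Of 18 desmosome and hemidesmosome genes 9 were above background (50%, beside 60.1% of protein-coding genes) and 5 in the top 10%. The cytolinkers DST (15.75 ± 0.33) and PLEC (13.66 ± 0.27) and the tetraspanin CD151 (13.59 ± 0.12) were in the top 10%, as was the desmosomal cadherin DSG2 with 12.12, 12.06 and 12.40. The desmogleins of stratified skin DSG1 (3.88 ± 0.17) and DSG3 (3.41 ± 0.31) were at background. DSP, encoding desmoplakin (outside the rule), gave 3.58, 3.83 and 5.04, over the limit only in replicate 3. Of 18 connexin and pannexin genes 5 were above background, led by the connexins GJC1 (12.28 ± 0.09) and GJA1 (11.17, 11.45 and 11.78).

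Intermediate filaments combined mesenchymal and simple epithelial members. VIM, encoding vimentin, gave 16.92, 16.83 and 16.99, although a second probe set named for it was at 5.20. The paired keratins of simple epithelia were in the top 10%, KRT8 with 15.08, 14.66 and 15.33 and KRT18 with 13.38, 13.03 and 14.14. KRT8 and KRT18 overlap each other in the gene table, as CLDN1 and CLDN16 do. KRT7 was at 7.62 ± 0.09, KRT19 was near the limit, as given above, and KRT5, a keratin of basal cells, was at background at 3.10 ± 0.03. Of 32 ranked filament genes 12 were above background (37.5%, below the 60.1% of protein-coding genes). In the top 10% were 5, the lamins LMNA and LMNB1 included.

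**Figure D3:**
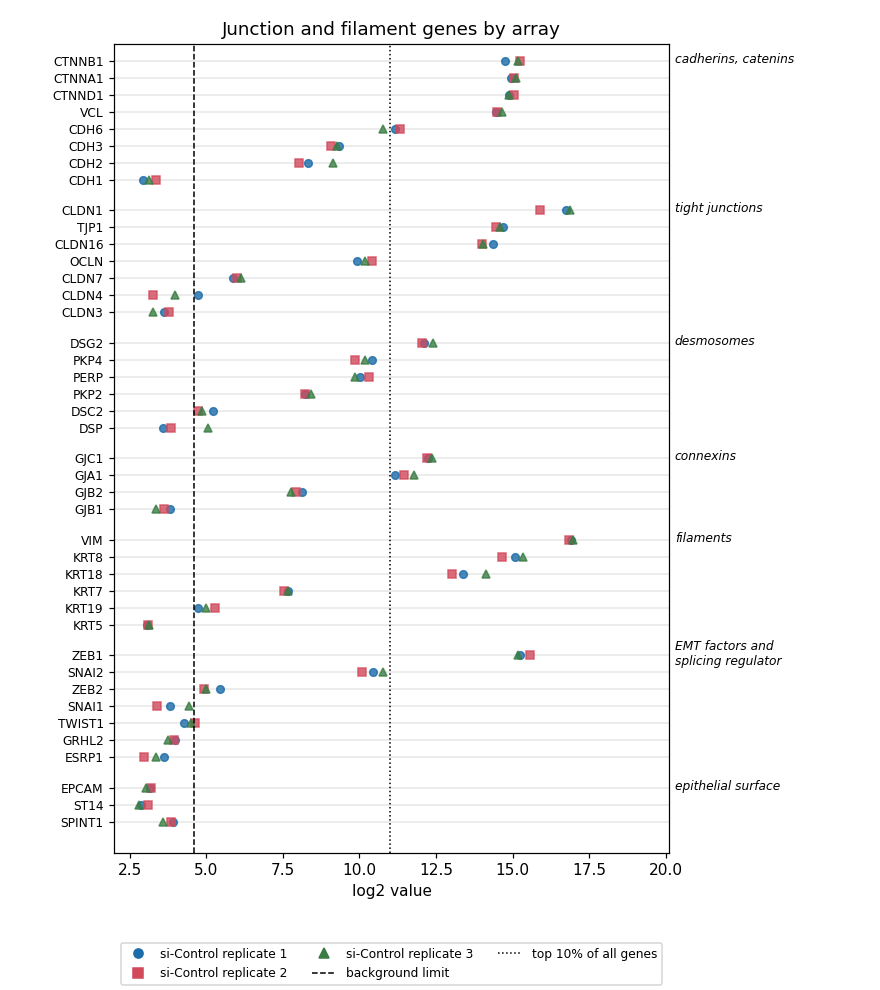
Log2 values of junction, filament, transition-factor and epithelial surface genes on each of the 3 si-Control arrays, with circles, squares and triangles for replicates 1, 2 and 3. The catenins, CLDN1, VIM, KRT8 and ZEB1 lie right of the dotted line at 10.98, while CDH1, EPCAM, ESRP1 and KRT5 lie left of the dashed background limit at 4.59 on every array.

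Secreted proteins had members in the top 10% in the matrix, protease and ligand lists, and each of these lists also had members at background. FN1, encoding fibronectin and the gene with the 6 GC box matches above, gave 18.14, 18.06 and 18.26. It overlaps ATIC in the gene table. Of 48 matrix glycoprotein and CCN genes 28 were above background (58.3%, near the 60.1% of protein-coding genes) and 10 in the top 10% (20.8%, beside 15.9%). Among these 10 were SPARC (15.73, 16.46 and 15.53) and SPP1, encoding osteopontin (15.44, 16.30 and 15.47), both highest in replicate 2. VCAN, a large proteoglycan, was at 15.42 ± 0.25. THBS1, encoding thrombospondin-1, gave 15.77, 13.82 and 15.75, so replicate 2 lay apart from the other pair. THBS3 read 15.93 ± 0.10, but its second probe set was at 5.79 and it overlaps MTX1 in the gene table. At background were cartilage aggrecan, ACAN (2.80 ± 0.09), biglycan, BGN (3.31 ± 0.17), and the fibulin FBLN5 (3.16 ± 0.19).

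Basement membrane and collagen genes were uneven. The laminin chains LAMC1 (16.54 ± 0.24) and LAMB1 (12.86 ± 0.33) were in the top 10%, and the alpha chains above background were LAMA2 (5.91 ± 0.32) and LAMA4 (5.08 ± 0.21). Of 22 collagen genes 12 were above background (54.5%, beside 60.1% of protein-coding genes) and 0 in the top 10%. COL12A1 (8.45 ± 0.28), COL6A1 (8.41 ± 0.56) and COL1A1 led them. POSTN, a matrix protein of fibroblasts, was at background at 4.14 ± 0.56.

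Of 25 metalloproteinases and their inhibitors, 6 were above background and 4 of these 6 were in the top 10%. TIMP1, an inhibitor, gave 16.48, 16.45 and 16.73. The membrane-bound enzymes MMP14 (14.57 ± 0.09) and MMP16 (14.62 ± 0.04) and the gelatinase MMP2, which MMP14 activates, with 13.77, 13.99 and 13.78, complete the 4. The collagenase MMP1 gave 7.66, 7.91 and 9.45 and was highest in replicate 3, and MMP3 was at the limit. PLAU, the urokinase that activates plasminogen, gave 15.69, 15.67 and 16.24, and its receptor PLAUR gave 9.61, 10.12 and 10.55. Among serpins, SERPINE2, an inhibitor of urokinase and thrombin, was at 11.41 ± 0.54 and SERPINA1, encoding alpha-1 antitrypsin, at 10.64 ± 0.27.

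Among signalling ligands, a few were in the top 10%, and the share above background varied by family. CSF1, the macrophage growth factor, gave 14.72, 14.95 and 15.48 and was the only 1 of 47 interleukins and colony stimulating factors in the top 10%. VEGFA, the endothelial growth factor, gave 13.69, 14.42 and 13.63, and FGF2 gave 14.06, 13.40 and 14.28. EREG, encoding epiregulin, gave 12.73, 10.94 and 12.91 and, like its receptor gene EGFR, was lowest in replicate 2. Of 10 EGF family ligands 6 were above background (60%), the others being NRG1 (10.03 ± 0.55), TGFA (7.29, 8.30 and 8.56), NRG2 (7.64 ± 0.36), HBEGF (6.37 ± 0.46) and BTC (5.66 ± 0.25). EGF itself was at background, at 4.14 ± 0.20. IL6 gave 6.71, 6.93 and 8.11, and CCL2, the highest of 39 chemokines, was at 8.68 ± 0.29. No chemokine was in the top 10%, and TNF (2.99 ± 0.02) and IFNG (3.02 ± 0.28) were at background.

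Wnt ligands and inhibitors had 5 of 28 members above background. WNT5A, a ligand of the receptors ROR1 and RYK, gave 10.06, 11.27 and 10.34, though its second probe set was at 3.98. WNT5B was at 9.75 ± 0.72 and the secreted DKK3 at 10.71 ± 0.20. WNT9B read 17.95 ± 0.10, but its second probe set was at 3.49 and it overlaps LRRC37A2 in the gene table, so the value is uncertain. IGF binding proteins included IGFBP7 (14.68 ± 0.21) and IGFBP3 (14.29, 14.94 and 14.19) in the top 10%, and IGF2 was at background at 2.99 ± 0.18.

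Metabolic lists differed in their shares of genes above background, and 4 of them stood above most other lists. Citrate cycle genes were above it in 26 of 27 cases, and cholesterol and fatty acid synthesis genes in 32 of 34. For the pentose phosphate and antioxidant genes the count was 26 of 29, with 16 in the top 10%. Serine, glycine and one-carbon genes had 14 of 17 above background and 8 in the top 10%. These shares, from 82.4% to 96.3%, lay above the 60.1% of all protein-coding genes; lists of housekeeping enzymes and lists of tissue-specific families differ in kind, and no test was made.

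Glycolysis was represented by 21 of 32 genes above background (65.6%, near the 60.1% of protein-coding genes). In the top 10% were 13 (40.6%, beside 15.9%), and those at background were mostly isoforms of other tissues. GAPDH and LDHA were at the ceiling, and ENO1, encoding enolase, gave 19.06, 19.11 and 19.16, with the next of its 3 probe sets at 10.20. PKM, the pyruvate kinase of growing cells, was at 17.92 ± 0.17, and PKLR, that of liver and red cells, at background at 3.64 ± 0.17. PGK1, which makes ATP in glycolysis, gave 14.61, 16.05 and 15.59, with replicate 1 lowest. The glucose transporter SLC2A1 (outside the rule) was at 13.39 ± 0.33, while SLC2A2, that of liver and pancreas, was at 3.52 ± 0.17. Testis forms were at background too, with PGK2 at 3.89 ± 0.04 and GAPDHS at 3.19 ± 0.28.

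In the citrate cycle, citrate synthase CS was at 14.33 ± 0.29, malate dehydrogenase MDH2 at 13.69 ± 0.20 and succinate dehydrogenase SDHA at 12.64 ± 0.19. IDH3G, a subunit of isocitrate dehydrogenase, read 15.89 ± 0.16, but it overlaps SSR4 in the gene table. PDK1, the kinase that holds back pyruvate dehydrogenase, gave 12.03, 13.00 and 12.81, and its relative PDK4 was just over the limit at 4.69 ± 0.23. Among antioxidant genes the thioredoxin gene TXN gave 16.68, 17.11 and 17.43, the peroxiredoxin gene PRDX1 was at 16.93 ± 0.21, the quinone reductase NQO1 gave 15.87, 16.47 and 16.51, and GPX4, the enzyme that repairs lipid peroxides, was at 13.83 ± 0.07. Replicate 1 was the lowest array for each of these 4.

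Lipid synthesis genes included ACLY, which makes cytosolic acetyl-CoA, at 15.33 ± 0.03 and MSMO1, of the late cholesterol pathway, with 15.25, 16.09 and 15.33. SCD, the desaturase that makes oleate, gave 13.01, 15.20 and 13.98, the widest spread of the list, with replicate 2 highest. SQLE, squalene epoxidase, was also highest there, at 12.79, 13.16 and 12.83. In fatty acid oxidation 18 of 30 genes were above background (60%, beside 60.1% of protein-coding genes). They were led by ECI2 (14.11 ± 0.36, second probe set at 7.96) and HADHA (12.87 ± 0.06, second at 3.86). PLIN2, which coats lipid droplets, gave 9.74, 11.09 and 10.38 with a second probe set at 3.36. The fat cell genes PLIN1 (3.24 ± 0.05) and FABP4 (3.18 ± 0.29) were at background.

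Amino acid genes had 20 of 26 members above background (76.9%, beside 60.1% of protein-coding genes) and 8 in the top 10% (30.8%, beside 15.9%). The transporters SLC38A2 (17.02 ± 0.06) and SLC38A1 (16.51 ± 0.23) carry small neutral amino acids. SLC3A2 and SLC7A5, which form the large neutral amino acid exchanger, gave 16.18, 14.65 and 15.58 and 15.68, 14.60 and 15.54. MAT2A, which makes the methyl donor S-adenosylmethionine, was at 17.67 ± 0.15, and PSAT1, of serine synthesis, gave 16.22, 14.86 and 14.96. Of iron genes 7 of 15 were above background (46.7%, below the 60.1% of protein-coding genes). The ferritin chain FTL was at 16.69 ± 0.23 and the transferrin receptor TFRC at 14.59 ± 0.29 (second probe set at 3.62), while the transferrin gene TF was at background at 3.50 ± 0.15.

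**Figure D4:**
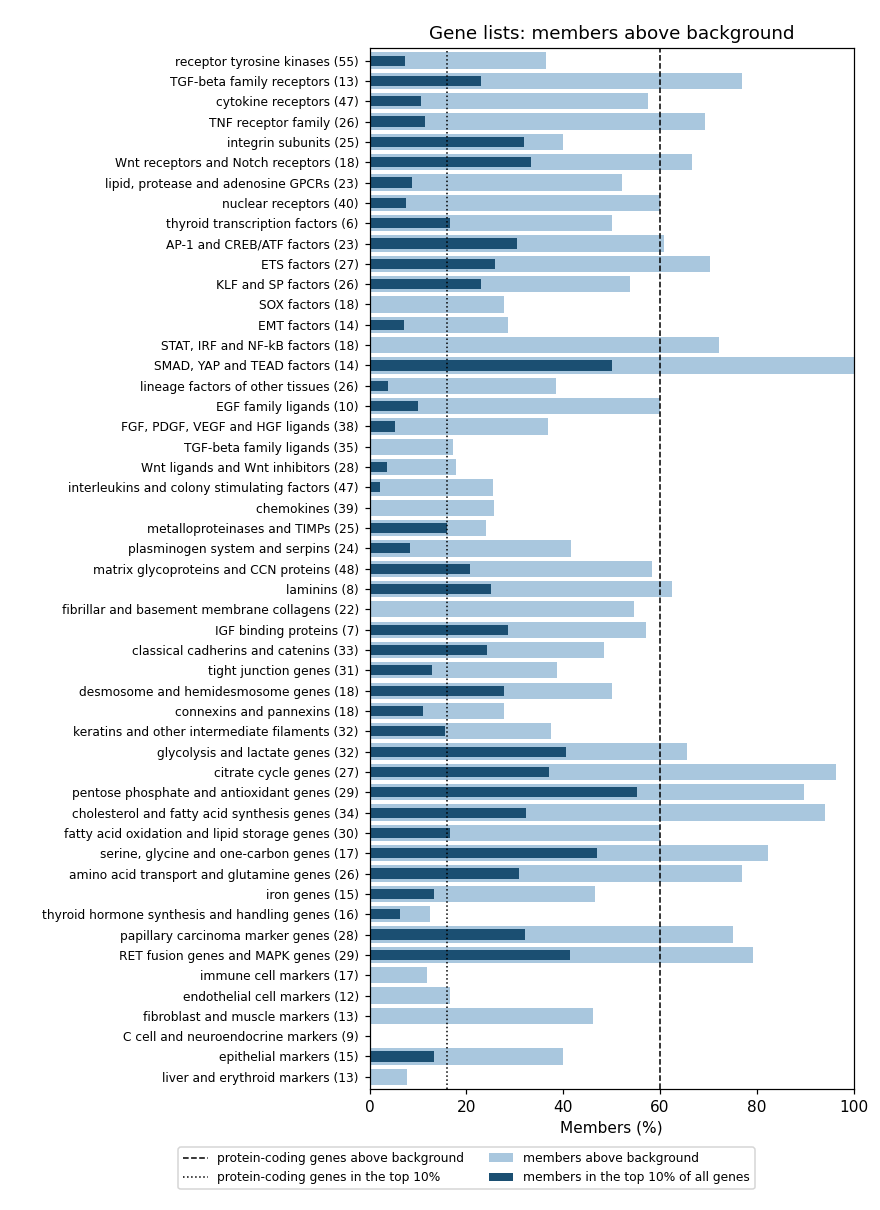
Share of the ranked members (%) of each of the 51 gene lists, cell type marker lists included, that were above background (light bars) and in the top 10% of all genes (dark bars), with the number of ranked members in brackets. The dashed and dotted lines give the same shares among protein-coding genes, 60.1% and 15.9%; most metabolic lists and the SMAD, YAP and TEAD list reach past the dashed line, while ligand, SOX and cell type marker lists stay short of it.

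Together the 51 lists named 1327 entries, of which 1200 were ranked, 605 were above background (50.4%) and 201 were in the top 10% (16.8%). Entries that no probe set names alone were not analysed here. A gene can stand on several lists.

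The 3 arrays resembled each other, and the spread depended on the class. Across the 16154 genes above background the values of any 2 arrays correlated at 0.986 to 0.990, a description over genes that share their arrays. The median SD was 0.207 for genes at background, 0.283 for those between and 0.212 for the top 10%. An SD over 0.5 was found for 2170 genes above background, 13.4% of them. For 1014 of these 2170 the array farthest from the other pair was replicate 2, lower in 687 and higher in 327; the corresponding counts were 554 for replicate 1 and 602 for replicate 3. What set replicate 2 apart was not tested.

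The protein-coding genes with the largest spread were of several kinds. CAMP, encoding an antimicrobial peptide, gave 6.50, 9.53 and 7.39, and GAL3ST1, a sulfotransferase of glycolipids, gave 4.18, 6.79 and 4.83, both highest in replicate 2. ANXA3, an annexin, gave 10.10, 7.94 and 10.05, and ZFP36, which destabilises cytokine mRNAs, gave 7.31, 5.45 and 7.68. For both, replicate 2 was the low array. Replicate 2 was also lowest for CCN1, a matrix protein, with 9.13, 7.08 and 9.02, for the growth regulator MYC, with 11.15, 9.46 and 10.89, and for KLF2, with 6.34, 5.14 and 6.78. It was highest for DUSP6, an inhibitor of ERK kinases (outside the rule), with 10.87, 11.44 and 10.92.

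A second group among the most variable genes is known from the amino acid response, in which the factor ATF4 induces amino acid transporters and enzymes of serine and asparagine synthesis. CHAC1, which degrades glutathione, gave 7.55, 5.29 and 5.23, and SLC7A11, the cystine transporter, gave 12.69, 10.27 and 10.90. MTHFD2, the mitochondrial folate enzyme, gave 13.96, 11.56 and 12.94, and ASNS, asparagine synthetase, gave 11.26, 9.45 and 10.53. In each of these 4 replicate 1 was the highest array. ATF4 itself gave 12.58, 11.73 and 12.37.

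A list of 29 textbook members of that response was drawn up after these values had been seen, so its counts describe the pattern and support nothing. Of 27 ranked members 24 were above background, and 16 of the 24 had their highest value in replicate 1 (66.7%), beside 4015 of 16154 genes above background (24.9%). Their median deviation from the gene's own mean was 0.37 in replicate 1, -0.53 in replicate 2 and 0.06 in replicate 3. Not all members shared it: SLC38A2 gave 17.00, 17.09 and 16.98, and the stress factor DDIT3 gave 5.08, 5.51 and 5.83.

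**Figure D5:**
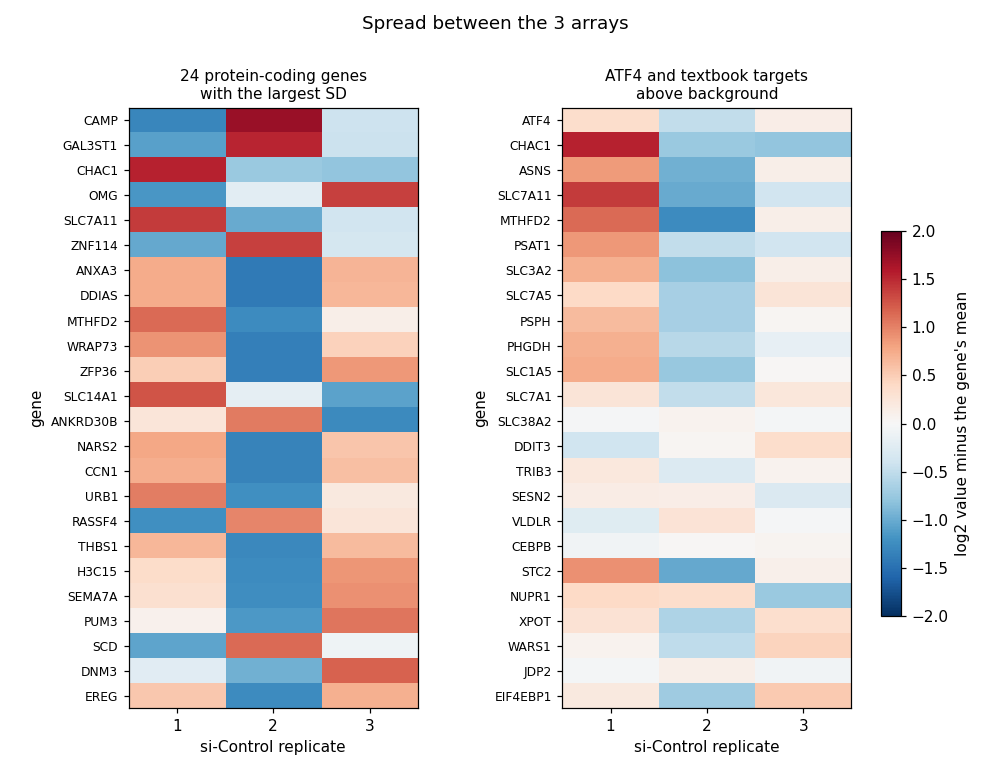
Deviation of each array's log2 value from the gene's 3-array mean (colour scale in log2 units, red above and blue below the mean) for the 24 protein-coding genes above background with the largest SD and for ATF4 with its textbook targets above background. Replicate 2 holds the extreme colour in most rows on the left, and on the right CHAC1, SLC7A11, MTHFD2 and PSAT1 are red in replicate 1 and blue in replicate 2.

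The letters TGATGNAA, the core shared by the elements that ATF4 dimers bind, were found in 3.19% of all promoters on either strand. Of the 22 listed genes with a promoter in the RefSeq table, 3 hold them in the 250 bases before the start and 19 do not. The 3 are CHAC1, ASNS and ATF3, an ATF4-induced factor that was at background, with 3.21, 3.93 and 4.52. The promoters of CHAC1 and ASNS are printed because these genes are above background and both were highest in replicate 1, with the match in capitals, on the gene's strand of GRCh38.p14.
CHAC1, chr15:40953221-40953470, plus strand: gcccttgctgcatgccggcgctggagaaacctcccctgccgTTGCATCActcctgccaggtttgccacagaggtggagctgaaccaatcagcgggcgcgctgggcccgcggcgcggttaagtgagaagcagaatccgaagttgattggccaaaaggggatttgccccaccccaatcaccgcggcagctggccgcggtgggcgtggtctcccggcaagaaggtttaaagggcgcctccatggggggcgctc
ASNS, chr7:97872409-97872658, minus strand: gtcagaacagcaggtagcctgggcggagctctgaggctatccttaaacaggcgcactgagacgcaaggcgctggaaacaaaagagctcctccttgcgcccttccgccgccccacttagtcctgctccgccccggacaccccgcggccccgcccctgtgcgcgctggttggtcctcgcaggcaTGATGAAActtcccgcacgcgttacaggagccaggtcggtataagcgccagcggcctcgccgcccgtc
In CHAC1 the match is on the opposite strand at 209 bases before the start, and in ASNS it lies at 68 bases. No match says only that these letters are not in this window.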

How the data were processed

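Affymetrix whole-transcript arrays were hybridised with RNA from TPC-1 cells, and the 3 arrays of the si-Control group were used. The deposited table holds a log2 value for every probe set on every array. Per the submitters' processing notes, the authors used RMA and Affymetrix Expression Console; the sources used here give no version and no annotation build. RMA corrects background, equalizes the arrays' distributions and summarises probes, so differences in total RNA cannot be seen. All arrays share a ceiling of 19.93 (999952 on the linear scale), and whether a step followed RMA is not given, so differences are on the deposited scale.

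From these values, the 36176 probe sets with 1 gene symbol in the platform's gene table were kept of 138745. A further 1119 carry several symbols and 101450 are unnamed here. Symbols were updated through a RefSeq gene table of GRCh38.p14 (25516 by Entrez ID, 9899 by symbol, 623 by synonym, 138 kept as they were). A gene with several probe sets, as 1707 have, was given the values of its brightest one by 3-array mean. Its mean, SD and percentile were computed with Python 3.11.15, numpy 2.4.6 and pandas 2.3.3.

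With 1 group there was no comparison and no test; the number of arrays limits the precision of each value. Named were the 25 protein-coding genes with the highest means, up to 6 highest and 6 lowest members and the most variable member above background of each list, the 12 most variable protein-coding genes above background, and a fixed set of thyroid, TGF-beta, RET and epithelial genes. Genes outside this rule are named as such, or belong to a list drawn up later, and were chosen after their values were seen. Overlap with another protein-coding gene is stated for some genes only, and others overlap too, such as FGF2 with NUDT6. The members and lists were chosen with earlier results of these data known. The ranking procedure was tested on simulated data. Promoter sequences are those of RefSeq.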

Additional observations from a re-analysis of the deposited data

How the results depend on the processing

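No paired analysis was possible because 1 group was described and no result comes from a test. Genes above background numbered 16154, 13388 with the 99th percentile of olfactory receptors as the limit (5.29), 20506 with the median of all probe sets (3.94), and 15542 to 16144 without 1 replicate each. They numbered 10496 when only protein-coding genes were ranked, where the limit, set by 375 olfactory receptors, was 4.65, and 10540 with the 95th percentile of negative control probe sets (6.43), an alternative chosen after seeing the data. The top 10% held 1762 genes when only protein-coding genes were ranked, and a top class of 5% held 1673, with 121 listed genes. These counts are smaller because fewer genes were ranked, a limit was higher, or both. The median SD above background was 0.267, 0.234 over all genes and between 0.2004 and 0.2256 without 1 replicate each, pairs giving smaller SDs by construction. The GGGCGG share at background was 37.4% over all genes, 41.4% for protein-coding genes alone and 35.1% with the lower limit. Of 630 named genes, 31, 37 and 59 crossed the background line under the 3 other limits in the order given (6.43 last). With the median over a gene's probe sets 31 levels moved, and 16 named genes crossed the line with a gene's lowest probe set. Genes with 1 probe set cannot change under these settings. Only 1707 of the 33458 ranked genes have several, so 630 is not the number that could move. Without replicate 1, 2 or 3, 6, 8 and 4 named genes crossed the line. Of the 51 list counts above background, 5, 12 and 16 moved by over 1.5 times under the 3 limits, and of those in the top 10%, 15 with protein-coding genes alone and 19 with the 5% class. Normalizing the 3 arrays again moved 0 of the 630 levels by more than 1 SD. For 658 genes the probe sets lay on both sides of the limit. No depth is defined for arrays. Signal near background limits what can be said of genes below about 6.43. The control probe sets with few GC bases read up to 7.38 and the highest negative control probe set 10.66, so 6.43 bounds neither.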
